A study of Rattus norvegicus with 23 samples.

Results

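The miR-183 cluster was followed in rat PC12 cells, a pheochromocytoma line with neuroendocrine character, by small RNA sequencing. Its members were every entry of the sRNAbench count table named miR-182, miR-183 or miR-96, with or without an arm, which gave 5 of 413 entries: rno-miR-182, rno-miR-183-5p, rno-miR-183-3p, rno-miR-96-5p and rno-miR-96-3p, written below without the species prefix. Of these 5, 4 had enough counts to be tested and miR-96-3p did not. The α1ACT line stably expressed α1ACT with 11 glutamine repeats and a C-terminal 3xFlag tag from pcDNA3, and the vector line carried empty pcDNA3. α1ACT is a transcription factor encoded by the calcium channel gene CACNA1A. Both lines had been selected with G418. After splitting, cells were taken at 4 times (6 h, 24 h, 3 d, 10 d), in 23 libraries (3 a group, but 2 for the vector line at 6 h). The labels give neither the number of clones behind a line nor whether replicates were separate cultures, so a difference between lines includes any difference between clones, and p-values measure the spread between these libraries, which may be technical.

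The 3 hairpins of this cluster are thought to be cut from a shared primary transcript by Drosha, exported, and cut again by Dicer, after which 1 arm is usually retained in an Argonaute protein and the other is lost. The cluster is best known from sensory organs: in mouse and human, mutations in the seed of miR-96 cause hearing loss, and in mice the cluster is abundant in photoreceptors and hair cells. The seed, bases 2 to 8 of the mature strand, directs the choice of target mRNAs, so the mature strands counted here are shown with that stretch in capitals, 5′ to 3′, from RefSeq (GRCr8).
miR-182: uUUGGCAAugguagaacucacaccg
miR-96-5p: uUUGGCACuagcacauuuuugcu
miR-183-5p: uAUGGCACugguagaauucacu
miR-183-3p: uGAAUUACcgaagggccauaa
miR-96-3p: cAAUCAUGugcagugccaauau
Counted from the 5′ end, the seeds of miR-182 and miR-96-5p differed at 1 of 7 positions (A8C, miR-182 first). The seeds of miR-96-5p and miR-183-5p also differed at 1 (U2A, miR-96-5p first). Those of miR-182 and miR-183-5p differed at 2 (U2A and A8C). Over all aligned positions from the 5′ end, the order of likeness was another: miR-182 and miR-183-5p were identical at 18 of 22 positions, against 12 of 23 for miR-182 and miR-96-5p. Apart from the members, no other of the 693 mature rat miRNAs in the RefSeq table had the same bases 2 to 7 as any of the 5.

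In the RefSeq table all 3 hairpins lie on the minus strand of rat chromosome 4 (GRCr8), in the order miR-183, miR-96, miR-182. The miR-183 hairpin is at chr4:59756044-59756153, the miR-96 hairpin at chr4:59755841-59755946 and the miR-182 hairpin at chr4:59752246-59752307. Only 97 bases separate the first pair, while 3533 bases separate miR-96 from miR-182, and the whole span is 3908 bases. No protein-coding gene of the table overlaps the span, and the nearest on either side are Nrf1, 14079 bases away, and Ube2h, 45948 bases away. The hairpins are shown as annotated, with the mature strands in capitals, to show where each counted strand lies in its record. The miR-182 record has 62 bases, against 110 for miR-183 and 106 for miR-96. Its mature strand is at positions 35 to 59, close to the end. The arm of the hairpin that gives miR-182 therefore cannot be read from this record. The distances above use these records.
miR-183 hairpin: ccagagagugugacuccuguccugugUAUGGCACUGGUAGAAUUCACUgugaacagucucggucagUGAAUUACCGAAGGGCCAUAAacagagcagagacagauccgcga
miR-96 hairpin: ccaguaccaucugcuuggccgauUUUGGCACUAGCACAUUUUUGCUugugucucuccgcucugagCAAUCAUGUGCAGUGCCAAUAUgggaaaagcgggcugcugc
miR-182 hairpin: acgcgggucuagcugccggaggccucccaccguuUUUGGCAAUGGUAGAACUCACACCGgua

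Total counts per library ran from 448557 (vector, 3 d, replicate 1) to 5070120, with a median of 2335856. The neuroendocrine markers miR-375, miR-7a and miR-7b summed to 112265–180292 CPM (counts scaled to a common library size with TMM factors) in the α1ACT line and 130898–190582 CPM in the vector line. Nearly all of this was miR-375-3p, at a mean of 146788 CPM. The other markers of this list were scarce, with means of 12.4 CPM for miR-7a-1-3p, 5.88 CPM for miR-7a-5p and 0.392 CPM for miR-7b. Blood markers summed to at most 11.5 CPM in the α1ACT line and 8.53 CPM in the vector line. The 4 muscle markers listed had 1 entry, miR-133a-3p, which reached at most 0.383 CPM in the α1ACT line and 0 in the vector line. Mesenchymal and endothelial markers, led by miR-143-3p, summed to 398–889 CPM in the α1ACT line and 502–1449 CPM in the vector line, and their part in the results was not tested. Replicate 2 of the vector line at 6 h and replicate 2 at 10 d appear exchanged between the 2 deposited tables. For miR-182 the Chimira table gave 1.41 and 0.722 times the sRNAbench count in these columns, against 1.01–1.02 times in the other 21 libraries. The sRNAbench names were kept, and vector values at 6 h and 10 d are given with the exchange where it matters and was run.

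The members stood at very different levels although their hairpins lie within 3908 bases. A read of a mature miRNA covers the whole molecule, and these strands are 21 to 25 bases long, so counts were compared without a length correction. Whether library preparation captured each strand equally was not tested, so differences between members are differences in reads. miR-182 averaged 31336 ± 2677 CPM (SD, n = 23) and was entry 7 of 413 by mean level. miR-183-5p averaged 3928 ± 621 CPM (SD, n = 23; entry 35), miR-96-5p 182.2 ± 72.8 CPM (entry 107) and miR-183-3p 24.5 ± 3.73 CPM (entry 175). The ranges over all libraries of these 4 entries did not overlap. The 5 entries together took 3.03% to 4.02% of the counts of a library, and miR-182 made up 83.6% to 90.8% of that. For miR-183 the 5p arm exceeded the 3p arm by a geometric mean of 155 times in the α1ACT line and 160 times in the vector line. miR-96-3p had 11 counts in all, in 5 of 23 libraries with at most 3 in any, and the sRNAbench table holds no value of 1, so a 0 there may stand for a single read. In the Chimira table, which does hold values of 1, miR-96-3p had 56 counts in 19 libraries.

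**Figure D1:**
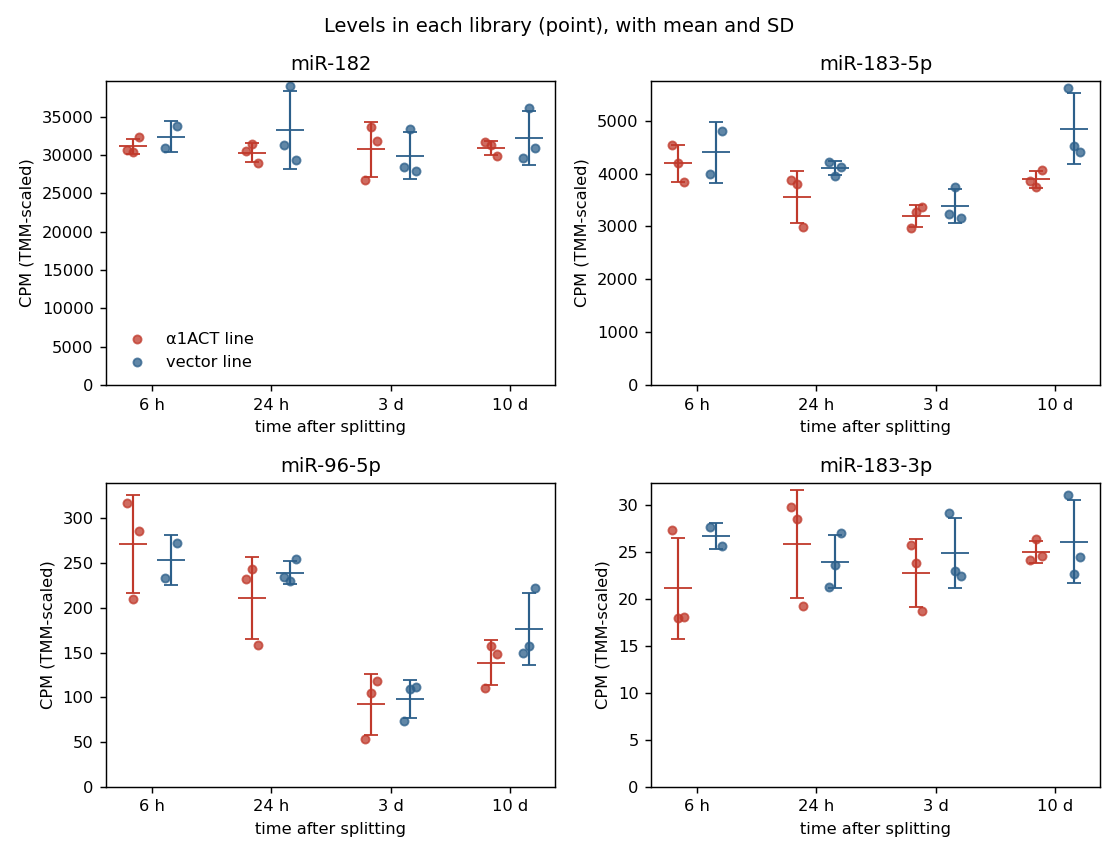
Level of the 4 tested members (CPM, TMM-scaled, linear axes from 0) against time after splitting, with the α1ACT line in red left of the vector line in blue. Points are libraries, and bars give the mean and SD of a group; miR-182 stays near 31336 CPM while miR-96-5p is lowest at 3 d in both lines.

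Whether α1ACT went with a change of the cluster was asked first, as the mean difference of the lines over the 4 times. miR-182 averaged 30803 ± 1752 CPM in the α1ACT line (SD, n = 12) and 31918 ± 3417 CPM in the vector line (n = 11), and the ranges of the lines overlapped. In such bulk RNA, fewer cells with a miRNA and less of it per cell cannot be told apart. miR-183-5p averaged 3711 ± 477 CPM in the α1ACT line and 4166 ± 694 CPM in the vector line. miR-96-5p averaged 178 ± 79.8 CPM in the α1ACT line and 186 ± 68.0 CPM in the vector line, and miR-183-3p 23.7 ± 4.22 CPM in the α1ACT line and 25.3 ± 3.10 CPM in the vector line. These SDs pool the 4 times, so they include changes with time. The fit gave each time equal weight, which put miR-96-5p at 90.4% of the vector level. All 4 means were lower in the α1ACT line, but none of the 4 members was called (edgeR quasi-likelihood test, adjusted by Benjamini-Hochberg over 269 entries), at a background of 12.6% of entries called (5.95% lower). At an unadjusted p under 0.05 edgeR had 1 of the 4, miR-183-5p, and 77 of all 269 entries. The log2 fold change of α1ACT over vector was -0.05 for miR-182 (95% interval -0.17 to 0.06, edgeR adjusted p = 0.595) and -0.15 for miR-96-5p (-0.40 to 0.11, edgeR adjusted p = 0.478). For miR-183-3p it was -0.09 (-0.32 to 0.15, edgeR adjusted p = 0.687). These intervals leave room for differences of the sizes they span, so the lines were not shown to be alike.

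miR-183-5p came nearest to the threshold. Its log2 fold change was -0.17 (SE 0.0583, 95% interval -0.29 to -0.05, edgeR adjusted p = 0.0555), which is 89.0% of the vector level. It crossed the threshold under RLE scaling (edgeR adjusted p = 0.0437), with entries of at least 10 CPM alone (0.0498), by DESeq2 (DESeq2 adjusted p = 0.0346) and without the vector library of 3 d, replicate 3 (edgeR adjusted p = 0.0425). With the vector columns exchanged the value was -0.16 and not called (edgeR adjusted p = 0.104). Over 37 alternatives it kept its sign, ranged from -0.21 to -0.08 and stayed uncalled in 33. By time, the 3 α1ACT libraries were all below the 3 vector libraries at 24 h and at 10 d, and the ranges overlapped at 6 h and 3 d. How many of all tested entries had groups apart in this way was not counted, here or between times. The log2 fold change was -0.07 at 6 h, or -0.02 with the vector columns exchanged. It was -0.21 at 24 h and -0.08 at 3 d, neither called (edgeR adjusted p = 0.484 and 0.908). At 10 d miR-183-5p stood at 3852, 3751 and 4062 CPM in the α1ACT line, against 5616, 4523 and 4406 CPM in the vector line. The log2 fold change there was -0.32 (SE 0.113, edgeR adjusted p = 0.158), not called, at a background of 1.49% of entries (0.743% in either direction). With the vector columns exchanged it kept its sign.

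At single times no member was called between the lines. For miR-182 the log2 fold change was -0.06, -0.13, 0.04 and -0.06 in the order of the times. For miR-96-5p it was 0.10, -0.18, -0.15 and -0.35 in that order, and for miR-183-3p -0.33, 0.12, -0.08 and -0.06. With the vector columns exchanged, the value of miR-96-5p was 0.48 at 6 h and -0.63 at 10 d, that of miR-182 -0.11 and -0.02, and that of miR-183-3p -0.24 and -0.12, and none was called. With the columns as named, the smallest edgeR adjusted p of these 12 values was 0.536, and the background was 0% of entries at 6 h and 0.372% at both 24 h and 3 d. A change of the line difference with time was not called for any member either (edgeR interaction F test, adjusted p = 1.0 for each of the 4, background 0%). At an unadjusted p under 0.05 edgeR had 30 of the 269 entries at 6 h and 10 for the interaction, with 0 members in either. Calls by DESeq2 over all entries were 3 at 6 h and 2 for the interaction, and by limma-voom 0 for both.

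**Figure D2:**
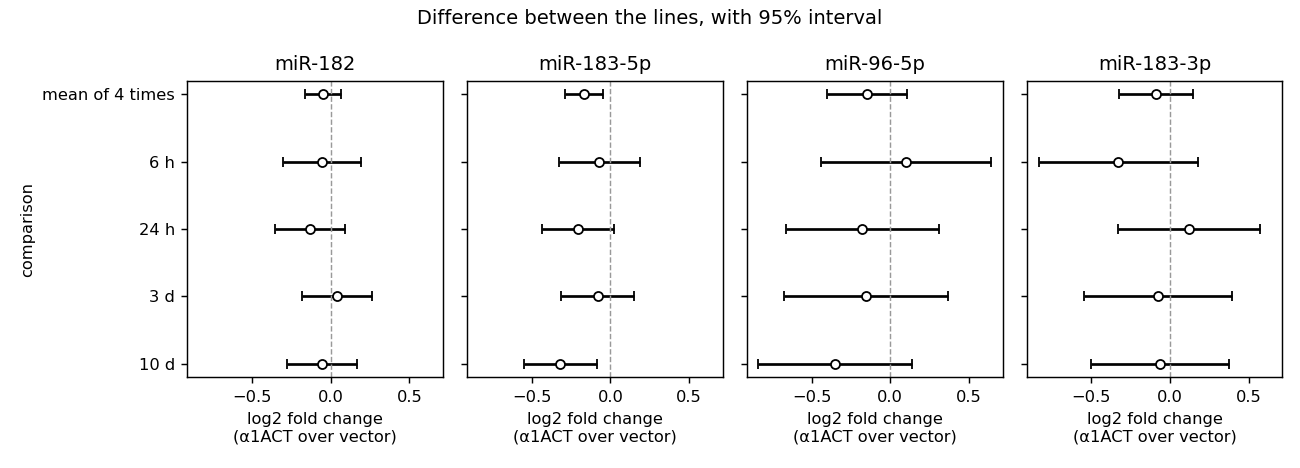
Log2 fold change of the α1ACT line over the vector line (x axis) for the 4 tested members, as the mean of the 4 times and at each time (rows), with 95% intervals from the edgeR fit. All symbols are open because no comparison was called, and the interval of miR-183-5p lies below 0 for the mean and at 10 d.

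The members differed in how their levels varied with time after splitting, and miR-96-5p varied most. The α1ACT libraries held 318, 210 and 286 CPM of miR-96-5p at 6 h, then 232, 243 and 159 CPM at 24 h, then 53.4, 104 and 118 CPM at 3 d, then 110, 157 and 149 CPM at 10 d. The vector libraries held 234 and 273 CPM at 6 h, then 235, 230 and 254 CPM at 24 h, then 74.0, 109 and 112 CPM at 3 d, then 149, 157 and 222 CPM at 10 d. In both lines every 3 d library was below every 24 h and 6 h library. In the vector line every 10 d library was above every 3 d library, and in the α1ACT line these times overlapped. How many of all tested entries had times apart in these ways was not counted. The lowest values rest on few reads, 120 in the α1ACT library of 3 d, replicate 1, and 33 in the shallow vector library of 3 d, replicate 1.

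miR-96-5p changed over the 4 times in the α1ACT line (edgeR F test, adjusted p = 0.000157, background 42% of entries called) and in the vector line (edgeR F test, adjusted p = 0.00189, background 36.8%). At 3 d it fell to 92.1 ± 34.2 CPM in the α1ACT line, against 211 ± 45.8 CPM at 24 h (SD, n = 3 each), which was 43.4% of the 24 h level in the fit (log2 fold change -1.20, SE 0.242, edgeR adjusted p = 0.00104). In the vector line it fell to 98.2 ± 21.1 CPM at 3 d, against 240 ± 12.8 CPM at 24 h, or 42.7% (log2 fold change -1.23, SE 0.246, edgeR adjusted p = 0.000944). The background of entries called lower in this step was 12.3% in the α1ACT line and 11.2% in the vector line. Ordered from the largest fall, miR-96-5p was entry 11 of 269 in the α1ACT line and entry 6 in the vector line. From 6 h to 24 h miR-96-5p was not called (log2 fold change -0.36 in the α1ACT line and -0.08 in the vector line, edgeR adjusted p = 0.355 and 0.951), and the exchange of the vector columns turned the sign of the vector value, to 0.29. The background there was 10.4% in the α1ACT line (2.6% higher, 7.81% lower) and 1.12% in the vector line (0.743% lower). Both calls of the fall to 3 d held in all 38 alternatives, over which the log2 fold change ran from -1.41 to -0.93 in the α1ACT line and from -1.33 to -1.12 in the vector line.

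The α1ACT level of miR-96-5p was at 139 ± 25.0 CPM at 10 d, against 92.1 ± 34.2 CPM at 3 d (log2 fold change 0.59, SE 0.242, edgeR adjusted p = 0.0656; background called higher 16.7%). The difference was not called here, but was called in 6 of 38 alternatives. In the vector line it rose to 176 ± 40.1 CPM at 10 d, against 98.2 ± 21.1 CPM at 3 d (log2 fold change 0.79, SE 0.244, edgeR adjusted p = 0.0205; background called higher 13%). That call was lost without vector 3 d replicate 1 (edgeR adjusted p = 0.0782), vector 3 d replicate 2 (0.0562) or vector 10 d replicate 3 (0.132), with no filter on low counts (0.0751), and without the exchanged pair and vector 3 d replicate 1 together (0.0893). Set against 6 h, the 10 d level was called lower in the α1ACT line, at 139 ± 25.0 CPM against 271 ± 55.0 CPM (log2 fold change -0.97, SE 0.236, edgeR adjusted p = 0.00463; background 27.1%, called lower 16%), and this held in all 38 alternatives. In the vector line it was at 176 ± 40.1 CPM at 10 d, against 253 ± 27.8 CPM at 6 h (log2 fold change -0.52, SE 0.258, edgeR adjusted p = 0.215; background called higher 5.2%, lower 6.69%). The exchange of the vector columns turned that sign, to 0.13. The steps that include 3 d share its libraries, so the fall to 3 d and the rise after it are not independent values.

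The group means of miR-183-5p were also lowest at 3 d in both lines. Its α1ACT libraries held 4538, 4194 and 3847 CPM at 6 h, then 3881, 3802 and 2991 CPM at 24 h, then 2965, 3278 and 3366 CPM at 3 d, then 3852, 3751 and 4062 CPM at 10 d. Its vector libraries held 3993 and 4812 CPM at 6 h, then 4225, 3962 and 4130 CPM at 24 h, then 3244, 3745 and 3165 CPM at 3 d, then 5616, 4523 and 4406 CPM at 10 d. In both lines the 3 d libraries were all below the 10 d libraries, a separation that was not counted over all tested entries. The background called higher in this step was 16.7% of entries in the α1ACT line and 13% in the vector line. The level of miR-183-5p changed over the times in the α1ACT line (edgeR F test, adjusted p = 0.0330) and in the vector line (edgeR F test, adjusted p = 0.00527). The background was 42% of entries called in the α1ACT line and 36.8% in the vector line. The α1ACT call was lost when any 1 of 7 libraries was left out: α1ACT 6 h replicate 1, α1ACT 6 h replicate 2, α1ACT 24 h replicate 2, α1ACT 3 d replicate 1, α1ACT 3 d replicate 2, α1ACT 10 d replicate 1 or vector 24 h replicate 1 (edgeR adjusted p between 0.0518 and 0.139). The vector call was lost without vector 10 d replicate 1 (edgeR adjusted p = 0.0761).

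A single step of miR-183-5p was called, its rise from 3 d to 10 d in the vector line. In the α1ACT line it was at 3888 ± 159 CPM at 10 d, against 3203 ± 211 CPM at 3 d (SD, n = 3 each; log2 fold change 0.28, SE 0.113, edgeR adjusted p = 0.0566), and 10 of 38 alternatives called it. Its vector level was 4848 ± 667 CPM at 10 d, against 3384 ± 315 CPM at 3 d (log2 fold change 0.52, SE 0.114, edgeR adjusted p = 0.00119; background called higher 13%). This call held in all 38 alternatives, with a log2 fold change of 0.37 to 0.75. From 24 h to 3 d the log2 fold change was -0.15 in the α1ACT line and -0.28 in the vector line, neither called (edgeR adjusted p = 0.360 and 0.0805).

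miR-182, the most abundant member, showed no called change over time. Its group means lay between 30328 CPM (24 h) and 31131 CPM (6 h) in the α1ACT line and between 29946 CPM (3 d) and 33259 CPM (24 h) in the vector line. The edgeR F test over time gave an adjusted p of 0.987 in the α1ACT line and 0.675 in the vector line. From 24 h to 3 d, where miR-96-5p fell, the log2 fold change of miR-182 was 0.02 in the α1ACT line (95% interval -0.20 to 0.24) and -0.15 in the vector line (-0.37 to 0.07). The interval of miR-96-5p in that step was -1.71 to -0.70 in the α1ACT line and -1.74 to -0.72 in the vector line. Under upper-quartile scaling, which moved the median of all entries by 0.24, the rise of miR-182 from 3 d to 10 d in the vector line was called (log2 fold change 0.33, edgeR adjusted p = 0.0309), against 0.11 with TMM. miR-183-3p, the scarce arm, was not called over time either (edgeR F test, adjusted p = 0.639 in the α1ACT line and 0.901 in the vector line), at 13 to 126 counts a library.

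**Figure D3:**
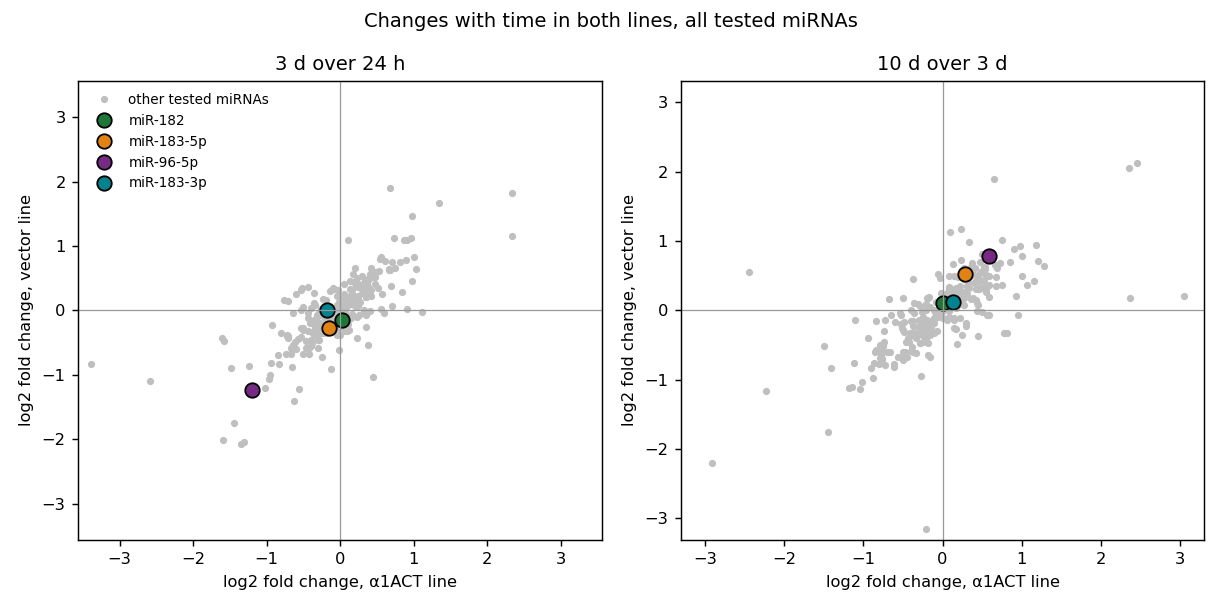
Log2 fold change from 24 h to 3 d (left) and from 3 d to 10 d (right) in the α1ACT line (x axis) and the vector line (y axis) for all 269 tested miRNAs in grey, with the 4 members in colour. From 24 h to 3 d miR-96-5p lies at -1.20 and -1.23, and miR-182 lies near 0 in both lines.

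A ratio of members within a library needs no scaling, since both counts share the depth. The ratio of miR-96-5p to miR-182 (log2 of counts, each plus 1) averaged -6.86 ± 0.295, -7.19 ± 0.277, -8.45 ± 0.460 and -7.81 ± 0.302 in the order of the times in the α1ACT line (SD, n = 3 each). Its vector averages were -7.00 ± 0.0696 (n = 2), -7.10 ± 0.280, -8.25 ± 0.291 and -7.53 ± 0.371 (n = 3 each). This is 1 read of miR-96-5p to 350 of miR-182 at 3 d and to 146 at 24 h in the α1ACT line, and to 305 at 3 d and 138 at 24 h in the vector line, as geometric means. An exact permutation test of the 4 times, added after the values were seen, gave p = 0.000844 in the α1ACT line and p = 0.00753 in the vector line (adjusted over 8 tests, 0.00675 and 0.0201). The ratio of miR-96-5p to miR-183-5p differed over the times as well (exact permutation test, adjusted p = 0.0151 in the α1ACT line and 0.0316 in the vector line). In this ratio the vector libraries that may be exchanged stood at -4.14 (6 h, replicate 2) and -4.84 (10 d, replicate 2). For the ratio of miR-183-5p to miR-182 the exact permutation test gave an adjusted p of 0.0833 in the α1ACT line and 0.232 in the vector line. For the ratio of the arms of miR-183 that test gave 0.0833 in the α1ACT line and 0.167 in the vector line. None of these tests over the 4 times was rerun under an alternative setting. Whether the vector p-values hold with the vector columns exchanged was therefore not tested.

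Single steps of these ratios cannot pass 0.05, since 3 libraries against 3 or 2 allow no two-sided exact permutation p under 0.1. From 24 h to 3 d the ratio of miR-96-5p to miR-182 reached that p in both lines, with no overlap of the libraries (log2 change -1.27 in the α1ACT line and -1.15 in the vector line). From 6 h to 10 d it changed by -0.95 in the α1ACT line (exact permutation p = 0.1) and by -0.53 in the vector line (exact permutation p = 0.2), where the exchange of the vector columns turned the sign, to 0.21. Over the same interval the ratio of miR-96-5p to miR-183-5p changed by -0.86 in the α1ACT line (exact permutation p = 0.1) and by -0.68 in the vector line (p = 0.2), and that of miR-183-5p to miR-182 by -0.10 in the α1ACT line (p = 0.5) and 0.15 in the vector line (p = 0.9). With the exchange these vector changes were -0.091 for miR-96-5p to miR-183-5p (exact permutation p = 0.8) and 0.30 for miR-183-5p to miR-182 (p = 0.3).

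Between the lines no ratio passed the test with all libraries in. With line labels exchanged within each time, the log2 difference of α1ACT minus vector was -0.12 for miR-183-5p over miR-182 (two-sided exact permutation test, p = 0.10, adjusted over 3 ratios 0.301). It was -0.11 for miR-96-5p over miR-182 (exact permutation p = 0.409, adjusted 0.614) and 0.01 for miR-96-5p over miR-183-5p (exact permutation p = 0.914, adjusted 0.914). For miR-183-5p over miR-182 the unadjusted exact permutation p was 0.0212 without vector 24 h replicate 2, where miR-182 was highest of all libraries (39057 CPM). It was 0.0496 without vector 10 d replicate 2.

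**Figure D4:**
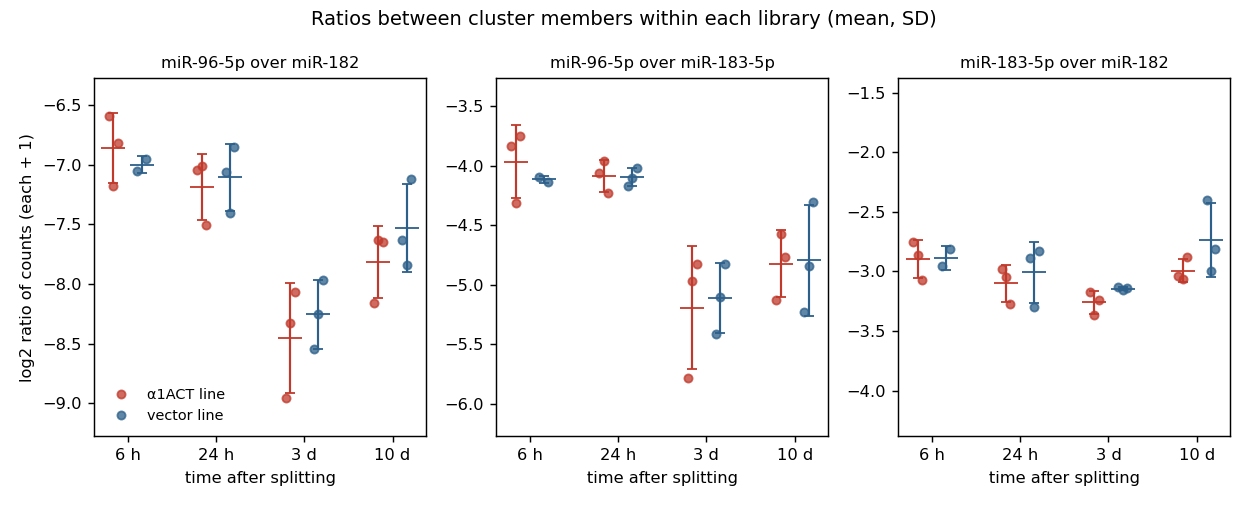
Log2 ratio of counts (each plus 1) between members in every library against time after splitting, with the α1ACT line in red left of the vector line in blue, and the mean and SD of each group. All 3 panels span 3 log2 units; both ratios of miR-96-5p are lowest at 3 d, and that of miR-183-5p to miR-182 moves less.

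The profiles most like each member were read from Pearson's r of log2 CPM over the 23 libraries, among 218 other miRNAs of at least 10 CPM; libraries share depth, scaling and groups, so these are descriptions. For miR-96-5p they were miR-501-3p (r = 0.91), miR-100-5p (0.90), miR-351-5p (0.85), miR-362-5p (0.82) and miR-212-5p (0.81). Like miR-96-5p, miR-100-5p was lowest at 3 d, at 62.4 ± 13.8 CPM in the α1ACT line and 54.4 ± 7.25 CPM in the vector line, against 154 ± 36.7 CPM (α1ACT) and 218 ± 25.8 CPM (vector) at 24 h (SD, n = 3 each). For miR-183-5p the closest were miR-99b-5p (0.71), let-7f-1-3p (0.71), miR-100-5p (0.69), miR-342-3p (0.62) and miR-151-5p (0.60). For miR-182 they were miR-10b-5p (0.61), miR-98-3p (0.58), miR-148b-3p (0.57), miR-152-5p (0.55) and miR-130b-5p (0.53). The closest to miR-183-3p, miR-29a-3p, reached 0.37. Among the members themselves r was 0.61 between miR-183-5p and miR-96-5p, 0.36 between miR-182 and miR-96-5p, 0.33 between miR-182 and miR-183-5p and 0.29 between the arms of miR-183. For miR-183-3p r was -0.18 with miR-182 and -0.02 with miR-96-5p. With group means removed, these values were in the same order 0.36, 0.35, 0.15, 0.44, -0.26 and -0.01.

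**Figure D5:**
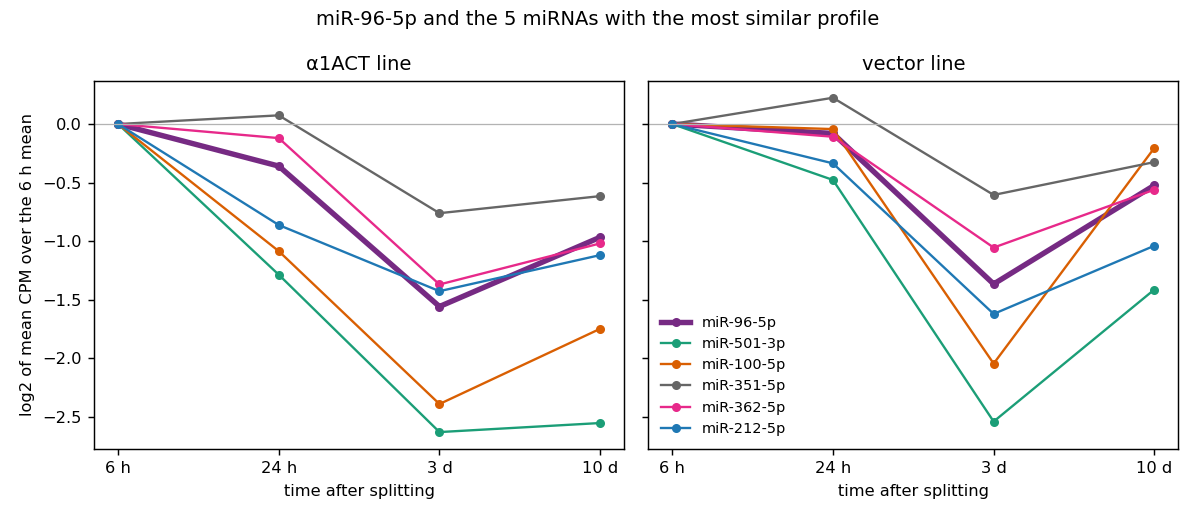
Log2 of the group mean CPM over the 6 h group mean of the same line, against time after splitting, for miR-96-5p (thick) and the 5 miRNAs of most similar profile, in the α1ACT line (left) and the vector line (right). In both lines every curve is below its 24 h value at 3 d.

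Other miRNAs of neuroendocrine and epithelial cells, with which this cluster is often found, were set beside it: miR-375, miR-7a, miR-7b, the miR-200 family with miR-141 and miR-429, miR-153 and miR-129, with 9 of 18 entries tested. The list also named miR-335, which had no entry. Between the lines 1 of the 9 was called higher in the α1ACT line and 0 lower, with a median log2 fold change of 0.17 against 0.00 over all entries (background called higher 6.69%). It was miR-129-5p, at 28.9 ± 8.45 CPM in the α1ACT line (n = 12) and 20.6 ± 9.31 CPM in the vector line (n = 11; log2 fold change 0.49, edgeR adjusted p = 0.0490). This call is near the threshold and was not followed under the alternative settings, and the lowest library held 4.48 CPM. From 24 h to 3 d, 1 of the 9 was called higher and 1 lower in the α1ACT line (median log2 fold change 0.47, against -0.01 over all entries), and 2 higher and 1 lower in the vector line (0.38, against -0.04). The background was 10% called higher and 12.3% lower in the α1ACT line, and 12.6% higher and 11.2% lower in the vector line. The abundant endocrine miRNA miR-375-3p rose in both lines in that step, with a log2 fold change of 0.47 in the α1ACT line and 0.41 in the vector line (edgeR adjusted p = 0.000322 and 0.00112). The neuronal miR-153-3p fell in both, by 0.71 in the α1ACT line and by 0.40 in the vector line on the log2 scale (edgeR adjusted p = 0.000199 and 0.0291). The vector line also had a rise of miR-7a-5p (log2 fold change 1.90, edgeR adjusted p = 0.0393). That miRNA is scarce, at a mean of 5.88 CPM over all libraries and a lowest value of 0.

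From 3 d to 10 d, 2 of the 9 were called higher and 3 lower in the α1ACT line, and 1 higher and 2 lower in the vector line. The background was 16.7% called higher and 16% lower in the α1ACT line, and 13% higher and 12.3% lower in the vector line. The median log2 fold change of the 9 was -0.25 in the α1ACT line and 0.01 in the vector line, against 0.01 over all entries in both. miR-153-3p rose, with a log2 fold change of 1.00 in the α1ACT line and 0.78 in the vector line (edgeR adjusted p = 1.58e-06 and 5.58e-05). Both arms of miR-375 fell in both lines: miR-375-3p by 0.25 on the log2 scale in each (edgeR adjusted p = 0.0338 in the α1ACT line and 0.0390 in the vector line), and miR-375-5p with a log2 fold change of -2.91 in the α1ACT line and -2.20 in the vector line (edgeR adjusted p = 0.00413 and 0.0147). The other calls were in the α1ACT line, where miR-141-3p rose (log2 fold change 0.98, edgeR adjusted p = 0.0336) and miR-200b-3p fell (log2 fold change -2.23, edgeR adjusted p = 0.00114). The changes of miR-375-5p, miR-200b-3p and miR-141-3p rest on few reads. Their means over all libraries were 3.19, 5.47 and 10.8 CPM in that order.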

How the data were processed

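The 23 PC12 libraries were Illumina small RNA libraries made from a fraction enriched for miRNA, per the labels' protocols. The authors deposited 2 tables of whole-number read counts per mature miRNA, with no normalization, whose names point to sRNAbench with single assignment (413 entries) and Chimira (627 entries). edgeR is named per the submitters' processing notes. Versions, aligner, miRBase release and build were not given in the sources used here. The vector line was read from control columns and the α1ACT line from WT columns, an assumption from the construct's repeat length. Each table has 12 further columns of none of the 23 samples, which were not used. The sRNAbench table has 1 unnamed entry with 0 counts, 0% of the total, which was left out.

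For the sRNAbench counts edgeR 4.0.16 was run (R 4.3.3, limma 3.58.1): filterByExpr kept 269 entries, TMM factors, 1 mean per group over all 23 libraries, robust quasi-likelihood dispersions, and Benjamini-Hochberg adjustment over the 269 with a threshold of 0.05. The SE of a log2 fold change is its size over the root of its F value. CPM are counts scaled by library total and TMM factor. Ratios used counts plus 1 and exact permutation tests. The members and lists were chosen with earlier results of these data known. Named miRNAs were all members, the 5 most alike in profile, and the called entries of the list of neuroendocrine and epithelial miRNAs. Other settings were the other table, DESeq2 1.42.0, limma-voom, other filters and scalings, a replicate block, the 2 groups alone, an exchange of a pair of columns, and leaving out libraries. All 5 members matched the RefSeq table of mature sequences. The fits were tested on simulated counts. Replicate pairs differed by a chi-square per degree of freedom of 21.3 to 215, so none was counted as 1 library. PCR reads carry no molecular identifiers, and counting error alone does not cover the spread.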

Additional observations from a re-analysis of the deposited data

How the results depend on the processing

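The fall of miR-96-5p from 24 h to 3 d and its F tests over time kept their calls in both lines under all alternatives run, and so did its fall from 6 h to 10 d in the α1ACT line and the rise of miR-183-5p from 3 d to 10 d in the vector line. For miR-183-5p the mean difference of the lines, -0.17 with an edgeR adjusted p of 0.0555, was called at -0.18 under RLE scaling, at -0.18 with entries of at least 10 CPM alone and at -0.18 by DESeq2, and ran from -0.21 to -0.12 when single libraries were left out. With the vector columns exchanged miR-183-5p differed by -0.16 and was not called (edgeR adjusted p = 0.104). Its F test in the α1ACT line lost its call with entries of at least 10 CPM alone (edgeR adjusted p = 0.110), and leaving out single libraries gave 0.0190 to 0.139. Its F test in the vector line lost it without the exchanged pair and the shallow library together, a setting chosen after seeing the data (edgeR adjusted p = 0.0605), and leaving out single libraries gave 0.00479 to 0.0761. The line difference of the log2 ratio of miR-183-5p to miR-182 ran from -0.16 to -0.077 when single libraries were left out. The cause of these moves was not tested.

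The count of entries called between the lines was 34, and 19 in the Chimira table, 18 with the pair of columns exchanged and 14 to 16 without it. It was 16 to 40 when single libraries were left out. From 6 h to 10 d in the vector line it was 32, but 0 in the Chimira table, 0 with the exchange, 60 under upper-quartile scaling, and 11 without the pair. Over all alternatives the other counts that moved by more than 1.5 times were 99 for time in the vector line (46 to 120), 68 from 3 d to 10 d in the vector line (44 to 101), 60 from 24 h to 3 d in the α1ACT line (34 to 72), and from 6 h to 24 h 28 in the α1ACT line (16 to 43) and 3 in the vector line (0 to 5). Between the lines they were 0 at 6 h (0 to 7), 1 at 24 h (0 to 3), 1 at 3 d (0 to 6), 4 at 10 d (0 to 11) and 0 for the interaction (0 to 4). Replicate numbers were not taken to pair libraries: over 11 same-numbered pairs the correlation of deviations from group means ran from -0.54 to 0.52. With the replicate block miR-183-5p differed between the lines by -0.16 (edgeR adjusted p = 0.0555) and its rise from 3 d to 10 d in the α1ACT line was called (edgeR adjusted p = 0.0499), and no other call of a member changed. Depth limits miR-96-3p, which could not be tested, and miR-183-3p, at 13 to 126 counts.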

Other observations

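In the RefSeq table a further miRNA, miR-3553, lies on the plus strand across the miR-183 hairpin, at chr4:59756105-59756127 (GRCr8). Its mature sequence contains the reverse complement of all 22 bases of miR-183-5p (shown above).
miR-3553: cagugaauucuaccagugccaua
It had 16 counts over 10 of 23 libraries in the Chimira table, with at most 3 in any, against 244631 counts of miR-183-5p there, and the sRNAbench table has 0 entries of that name.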
